A study of Bos taurus with 29 samples.

Results

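Solute carriers are membrane proteins that move small molecules across the plasma membrane and the membranes of organelles. They are described here in bovine digital dermatitis, an infectious skin disease of the foot of dairy cattle. Members were chosen by name: a gene was taken if all 5 deposited tables listed it and its symbol was SLC, a subfamily number, the letter A and a member number. Of the 10629 genes listed in all 5 tables, 158 had a symbol of that form, 1 was set aside by the rule, and 157 remained, in 40 subfamilies. The rule used no fold change and no p-value, but listing can depend on level. Each table holds M0, so a gene present mainly in M0 could be listed in all 5. A gene low in M0 and raised at 1 stage could be missing from the other tables, as was SLC2A6, listed for M4.1 alone. The members were sorted by subfamily into 11 classes by what they carry. Only 154 of the 157 are carriers. SLC9A3R1 and SLC9A3R2 are scaffold proteins that bind the tails of transporters, SLC7A6OS is named for its place on the strand opposite SLC7A6, and these 3 were kept as a class of their own.

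Gene expression was measured by sequencing the 3′ ends of messenger RNA in 29 punch biopsies of skin from Holstein-Friesian cattle, frozen in liquid nitrogen. There were 5 libraries of M1 (early lesion), 5 of M2 (acute ulcer), 5 of M3 (healing lesion), 5 of M4 (chronic lesion), 4 of M4.1 (chronic lesion with a renewed active area) and 5 of M0, the control group. The lesion samples came from the lesion site and the M0 samples from skin above the cleft between the claws, so disease and body site cannot be told apart in a comparison with M0. Per the series' design text, 22 lesion samples were collected on 6 farms, and a slaughterhouse supplied the 5 M0 samples and 2 from M1. Which M1 libraries these are is not given, and neither the labels nor the design text say that the samples of a group are different animals, so p-values measure the spread between samples. As all M0 samples came from the slaughterhouse and most lesion samples from farms, place of collection cannot be told apart from disease either. All 5 comparisons with M0 use the same 5 M0 libraries, and their results are therefore not independent of each other.

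Amino acid carriers supply protein synthesis, and several of them exchange one amino acid for another or draw on the sodium gradient. Monocarboxylate carriers move lactate together with protons, and bicarbonate carriers and sodium-proton exchangers set the pH of the cell. The SLC25 subfamily sits in the inner mitochondrial membrane and passes phosphate, nucleotides, amino acids and fatty acid esters of carnitine. In skin, fatty acid carriers feed the lipid barrier of the epidermis and the sebaceous glands, and zinc carriers are needed for an intact epidermis.

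Library totals over the genes of all tables ranged between 2858186 and 5399615 counts. Levels are given in CPM, that is as counts relative to a library total scaled by its TMM (trimmed mean of M-values) factor, which was 0.631 to 1.29 over all libraries and 1.04 to 1.29 in M0. Fold changes depend on this scaling: with unscaled totals the median of all genes moved by -0.28, -0.19, -0.32, -0.58 and -0.14 on the log2 scale in M1, M2, M3, M4 and then M4.1 against M0. The method counts 1 fragment per transcript, so levels are not scaled to length. All 6 keratinocyte markers were measured, and their summed level was 30200 to 269000 CPM in the 24 lesion libraries and 31200 to 48000 CPM in M0. Of these KRT5, KRT14 and IVL were higher in every lesion library than in any M0 library, with KRT5 at 10800 to 25300 CPM against 5170 to 7500 CPM. KRT1, KRT10 and DSG1 overlapped with M0, and KRT1 and KRT10 spread from 62.5 to 100000 and from 196 to 107000 CPM in lesions. Markers of skin appendages were lower in the lesion libraries. The 6 of 7 hair follicle markers measured summed to 0 to 506 CPM (median 2.42) in lesion libraries, against 2590 to 3770 CPM in M0, and the 6 were all at 0 in at least 1 lesion library. The 8 of 9 sweat and apocrine gland markers summed to 0.257 to 11 CPM in lesions and 322 to 1820 CPM in M0. For the sebaceous gland, 4 of 8 markers summed to 490 to 1240 CPM in lesions and 1930 to 2510 CPM in M0. Of these ELOVL3, PLIN2 and PPARG were lower in every lesion library than in any M0 library, while SCD was higher, at 232 to 1060 CPM in lesions and 76.8 to 197 CPM in M0. For fat cells 1 of 4 markers was measured, CIDEA, at 0 to 17.2 CPM in lesions and 57.7 to 246 CPM in M0. Of the 6 neutrophil markers 3 were measured, and they summed to 7580 to 35300 CPM in lesions and 204 to 2290 CPM in M0, nearly all of it S100A8 and S100A9, which inflamed keratinocytes also make. The 5 of 6 macrophage markers summed to 28.4 to 147 CPM in lesions and 29.7 to 85.7 CPM in M0. The 3 of 4 markers of wound keratinocytes summed to 33100 to 219000 CPM in lesions and 1000 to 2960 CPM in M0. The 3 smooth muscle markers summed to 95.1 to 739 CPM (median 316) in lesions and 441 to 1060 CPM (median 592) in M0, and the 3 endothelial markers to 43.1 to 127 CPM (median 68.5) in lesions and 79.5 to 124 CPM (median 91.7) in M0. None of the 5 melanocyte markers was measured. The summed markers of hair follicle, sweat, apocrine and sebaceous glands, fat cells, neutrophils and wound keratinocytes did not overlap between lesions and M0. Neither did KRT5, KRT14 or IVL. All of these thus move with every comparison with M0 below, and their part in the results was not tested. In bulk tissue, fewer cells of a type and less RNA per cell cannot be told apart.

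Of the 157 members 153 passed the filter on low counts and were tested. SLC34A2, SLC6A16, SLC2A4 and SLC30A3 did not pass. A member is called when its edgeR adjusted p, taken over all 10371 genes tested, is under 0.05. Against M0, M1 had 34 members higher and 45 lower, which is 51.6% of those tested, beside 43.0% of all genes. M2 had 32 higher and 42 lower, or 48.4%, beside 42.2% of all genes. For M3 the counts were 35 and 33, or 44.4%, beside 39.4% of all genes. M4 had 33 higher and 43 lower, or 49.7%, beside 42.4%. M4.1 had 33 higher and 38 lower, or 46.4%, beside 39.2%. The share called was thus somewhat above the background at each stage. By direction, the members were higher in 20.9% to 22.9% of cases, beside 20.2% to 21.9% of all genes, and lower in 21.6% to 29.4%, beside 18.9% to 21.1%. The median log2 fold change over the tested members was -0.13, -0.16, -0.10, -0.19 and -0.02 (here and below, a list of 5 values by stage runs M1, M2, M3, M4, M4.1), beside -0.01, -0.02, -0.00, -0.02 and -0.02 for all genes tested. Members thus moved in both directions. Of the 33 subfamilies with 2 or more tested members, 11 held members called in both directions in M1, 11 in M2, 11 in M3, 10 in M4 and 9 in M4.1. Every count by class or subfamily below stands beside the same shares of all genes, 20.2% to 21.9% higher and 18.9% to 21.1% lower. No class was tested as a set.

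**Figure D1:**
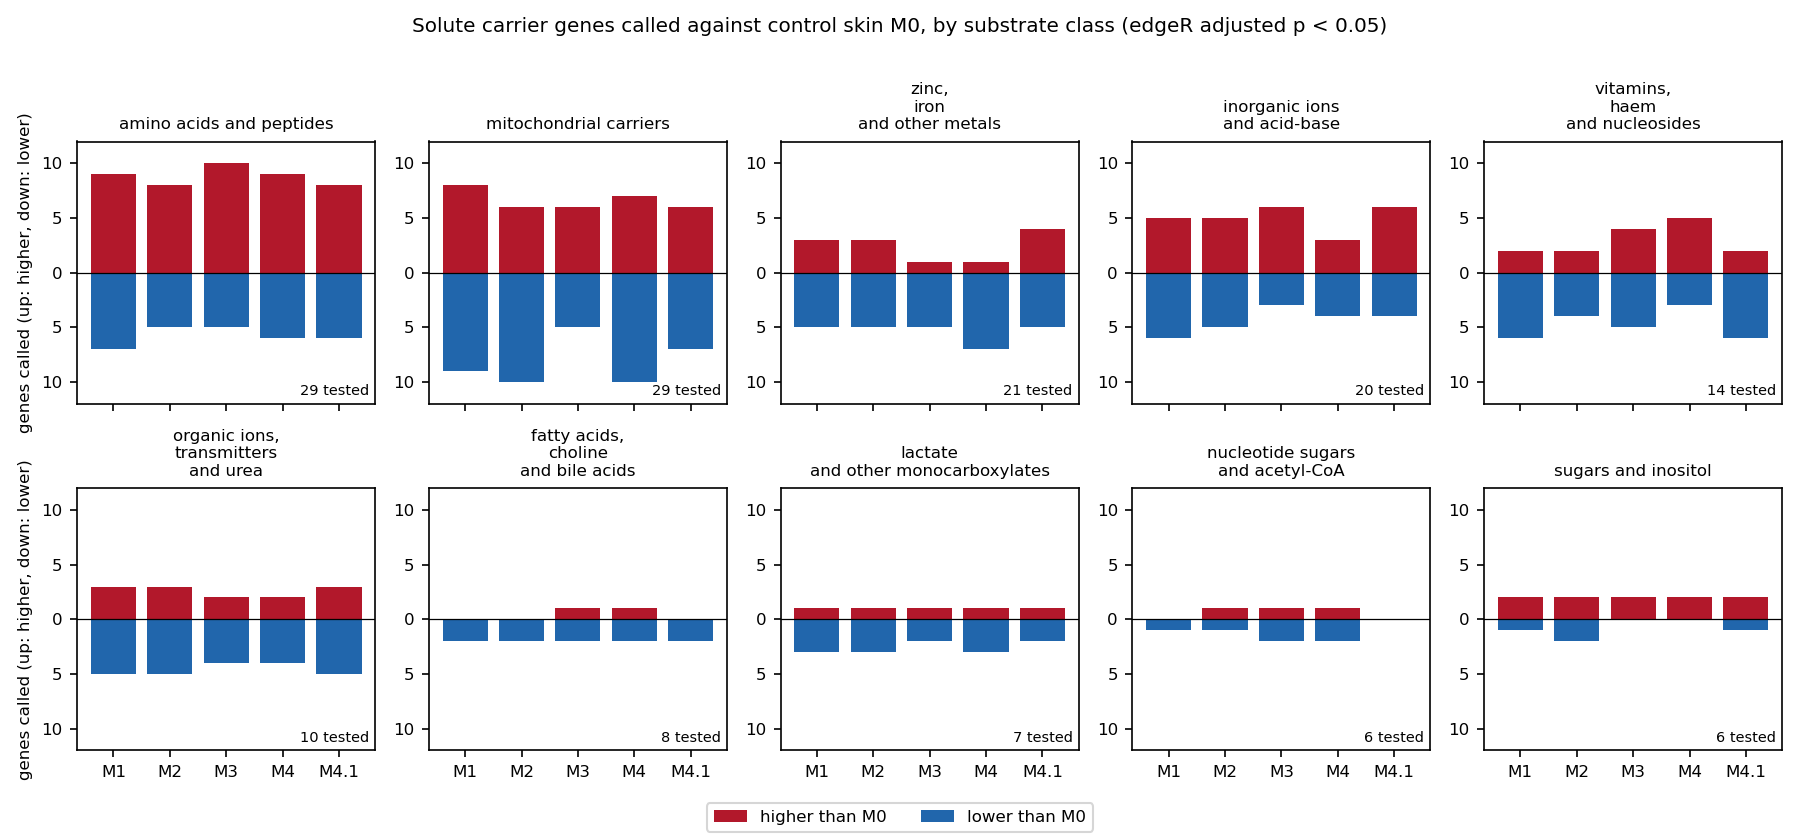
Number of members called against M0 by edgeR adjusted p under 0.05, with 1 panel for each of the 10 classes of carriers and the stages along the horizontal axis. Red bars upward count members higher in the stage and blue bars downward members lower, and each panel gives the number tested. Amino acid and mitochondrial carriers, with 29 tested members each, held calls in both directions at every stage.

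Levels that do not overlap between the 24 lesion libraries and the 5 M0 libraries give a view without a threshold on p. Every lesion library lay above every M0 library for 9 of 157 members, or 5.73%, beside 6.84% of all 10629 genes. Every lesion library lay below every M0 library for 20 members, or 12.7%, beside 7.46% of all genes. Because every table holds M0, genes present mainly in M0 could be kept more readily than genes present mainly in a lesion stage. The 9 that were apart above were SLC7A5, SLC38A2, SLC38A10, SLC66A2, SLC16A1, SLC4A7, SLC25A3, SLC25A24 and the scaffold SLC9A3R1. Amino acid carriers and their lysosomal relatives made up 4 of them. The 20 that were apart below came from 7 of the classes and included the peptide carrier SLC15A1, the fatty acid carrier SLC27A4, the iron exporter SLC40A1, the copper carrier SLC31A1, the folate carrier SLC46A1 and the nucleoside carrier SLC29A1.

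**Figure D2:**
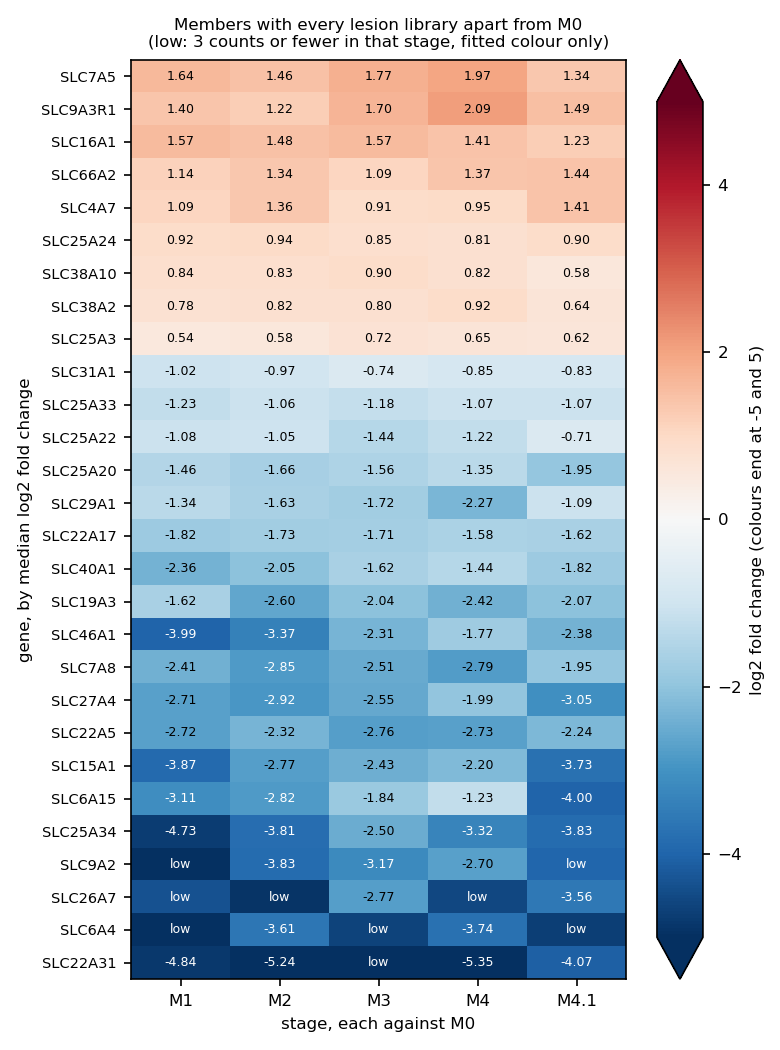
Log2 fold changes against M0 at each stage (columns) for the 28 tested members (rows) whose 24 lesion libraries all lie above or all lie below the 5 M0 libraries. Red is higher and blue lower in the stage, and a cell marked low has 3 counts or fewer in that stage. The members above M0 range from 0.54 to 2.09, and the largest falls belong to members with few or no counts in lesions.

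Among amino acid and peptide carriers, SLC7A5, SLC1A5, SLC38A2, SLC38A7, SLC38A10 and SLC66A2 were higher at every stage, while SLC15A1 and SLC7A8 were lower at every stage. Of 29 tested carriers of amino acids and peptides, 9, 8, 10, 9 and 8 were higher from M1 to M4.1, and 7, 5, 5, 6 and 6 were lower. The higher count in M4.1 was 5 without M4.1 replicate 4, and the lower count in M4 was 3 without M0 replicate 2. Medians were near 0, between -0.28 and 0.08. The summed level of the class was 1480 ± 184 CPM in M1, 1440 ± 115 in M2, 1610 ± 203 in M3, 1750 ± 70.3 in M4 and 1330 ± 38.8 in M4.1, against 943 ± 86.4 CPM in M0 (SD, n = 4 for M4.1 and n = 5 for the others), in each stage above M0 by more than the SD of either group. Much of this rise came from SLC38A2 and SLC7A5. Their medians were 685 and 314 CPM in lesions, against 397 and 91.1 CPM in M0. The sum is thus not a rise of the class as a whole.

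SLC7A5 (ENSBTAG00000006731) encodes the light chain of LAT1, which takes up leucine and other large neutral amino acids in exchange for glutamine. Its level was 315, 257, 281, 460 and 361 CPM in M1, 311, 291, 228, 290 and 354 CPM in M2, and 229, 301, 494, 365 and 443 CPM in M3. It was 540, 335, 425, 386 and 415 CPM in M4 and 303, 313, 191 and 282 CPM in M4.1, against 131, 148, 86.1, 80.6 and 91.1 CPM in M0. All lesion libraries were above all M0 libraries, and the M4 libraries were the highest as a group. The log2 fold changes were 1.64 ± 0.21, 1.46 ± 0.21, 1.77 ± 0.21, 1.97 ± 0.21 and 1.34 ± 0.22 (± SE) from M1 to M4.1, with edgeR adjusted p between 2.7e-08 and 2.0e-05. M4 differed from M2 by 0.51 (adjusted p = 0.13) and M4.1 from M4 by -0.63 (adjusted p = 0.083), neither of which passed the test. SLC3A2, the heavy chain that carries LAT1 to the plasma membrane, moved less, with log2 fold changes of 0.53, 0.24, 0.56, 0.67 and 0.31. It was called in M1, M3 and M4 (edgeR adjusted p = 0.012, 0.0097 and 0.0022), and the M1 call was lost without M1 replicate 4 (0.38, adjusted p = 0.061).

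SLC1A4 and SLC1A5 exchange small neutral amino acids, with glutamine among the substrates of SLC1A5. SLC1A4 was at 33.5, 37.2, 49.3, 112 and 37.7 CPM in M1, 38.7, 33.0, 33.2, 37.5 and 60.2 in M2, 39.1, 52.7, 41.8, 79.6 and 93.2 in M3, 120, 47.5, 55.8, 54.6 and 74.4 in M4 and 30.8, 38.4, 23.4 and 36.5 in M4.1. M0 libraries held 26.4, 23.3, 13.1, 18.1 and 16.5 CPM, so 23 of 24 lesion libraries were above all of M0, with M4.1 replicate 3 inside its range. The log2 fold changes of SLC1A4 were 1.46, 1.05, 1.64 and 1.85 in M1, M2, M3 and M4 (edgeR adjusted p = 4.8e-04, 0.0086, 1.7e-04 and 3.4e-05) and 0.73 in M4.1, which was not called (adjusted p = 0.084). SLC1A5 rose by 0.66, 0.60, 0.74, 0.83 and 0.68 (edgeR adjusted p = 0.0058, 0.012, 0.0026, 8.0e-04 and 0.0074). Its M2 call was lost without M0 replicate 5 (0.47, adjusted p = 0.053) and its M4.1 call without M4.1 replicate 4 (0.52, adjusted p = 0.057). The glutamate carriers of the same subfamily went the other way where they were called: SLC1A1 was lower in M1 and SLC1A3 in M3 and M4, and each of these calls was lost without any 1 of 5 to 7 libraries, M0 replicate 4 among them, with log2 fold changes then of -1.26 to -0.79 and adjusted p of 0.052 to 0.082.

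SLC38 carries glutamine and other small neutral amino acids with sodium, and of its 5 tested members 3 were higher and 0 lower at every stage. SLC38A2, the most studied of them and a carrier that cells raise when amino acids are scarce, was at 532 to 794 CPM in M1, 604 to 772 in M2, 618 to 779 in M3, 606 to 845 in M4 and 561 to 642 in M4.1, against 336 to 459 CPM in M0. The groups did not overlap, and its log2 fold changes were 0.78, 0.82, 0.80, 0.92 and 0.64 with SE of 0.12 to 0.13 (edgeR adjusted p between 6.4e-07 and 2.0e-04). SLC38A10 was at 39.6 to 63.1 CPM (median 49.5) in lesions, against 27.1 to 32.0 CPM (median 29.2) in M0, with log2 fold changes of 0.58 to 0.90 over the stages (edgeR adjusted p between 6.3e-06 and 0.0018). The lysosomal glutamine carrier SLC38A7 overlapped with M0, at 5.53 to 20.1 CPM (median 13) against 3.53 to 10.1 CPM (median 5.13). It rose by 1.06, 0.93, 0.93, 1.15 and 0.98, with the M3 call lost without M3 replicate 3 (0.73, adjusted p = 0.057) and the M4.1 call without M4.1 replicate 4 (0.80, adjusted p = 0.053). SLC66A2, a member of the lysosomal amino acid carrier family, was at 18.9 to 39.0 CPM (median 28.1) in lesions, against 9.65 to 13.5 CPM (median 12.1) in M0. Its log2 fold changes were 1.14, 1.34, 1.09, 1.37 and 1.44 (edgeR adjusted p between 3.0e-07 and 1.1e-05).

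SLC6A6, which imports taurine, was higher at 4 stages. It was at 6.71, 17.7, 4.88, 7.25 and 12.4 CPM in M1, 10.4, 8.35, 7.94, 14 and 12.4 in M2, 14, 8.74, 5.07, 5.89 and 4.61 in M3, 1.60, 5.11, 6.57, 3.4 and 3.39 in M4 and 10.5, 11.8, 13.1 and 14.6 in M4.1, against 3.27, 2.48, 0.83, 2.26 and 2.33 CPM in M0. Only M4 replicate 1 lay within the M0 range. Log2 fold changes were 2.12, 2.21, 1.78 and 2.46 in M1, M2, M3 and M4.1 (edgeR adjusted p between 1.0e-05 and 4.1e-04), and 0.83 in M4 (adjusted p = 0.095). SLC6A14, a sodium- and chloride-driven carrier of nearly all neutral and cationic amino acids, spread widely, from 14.8 to 234 CPM within M1 and from 21.6 to 55.3 CPM within M0. It was called in M3 (72.4, 132, 85.3, 247 and 192 CPM, log2 fold change 1.88 ± 0.54, edgeR adjusted p = 0.0065) and in M4 (89.1, 127, 269, 161 and 170 CPM, 2.05 ± 0.54, adjusted p = 0.003). In M1, M2 and M4.1 its log2 fold changes were 1.13, 0.87 and 1.16 (adjusted p = 0.085, 0.19 and 0.096), and neither M3 against M2 (1.01, adjusted p = 0.56) nor M4 against M2 (1.18, adjusted p = 0.17) passed.

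**Figure D3:**
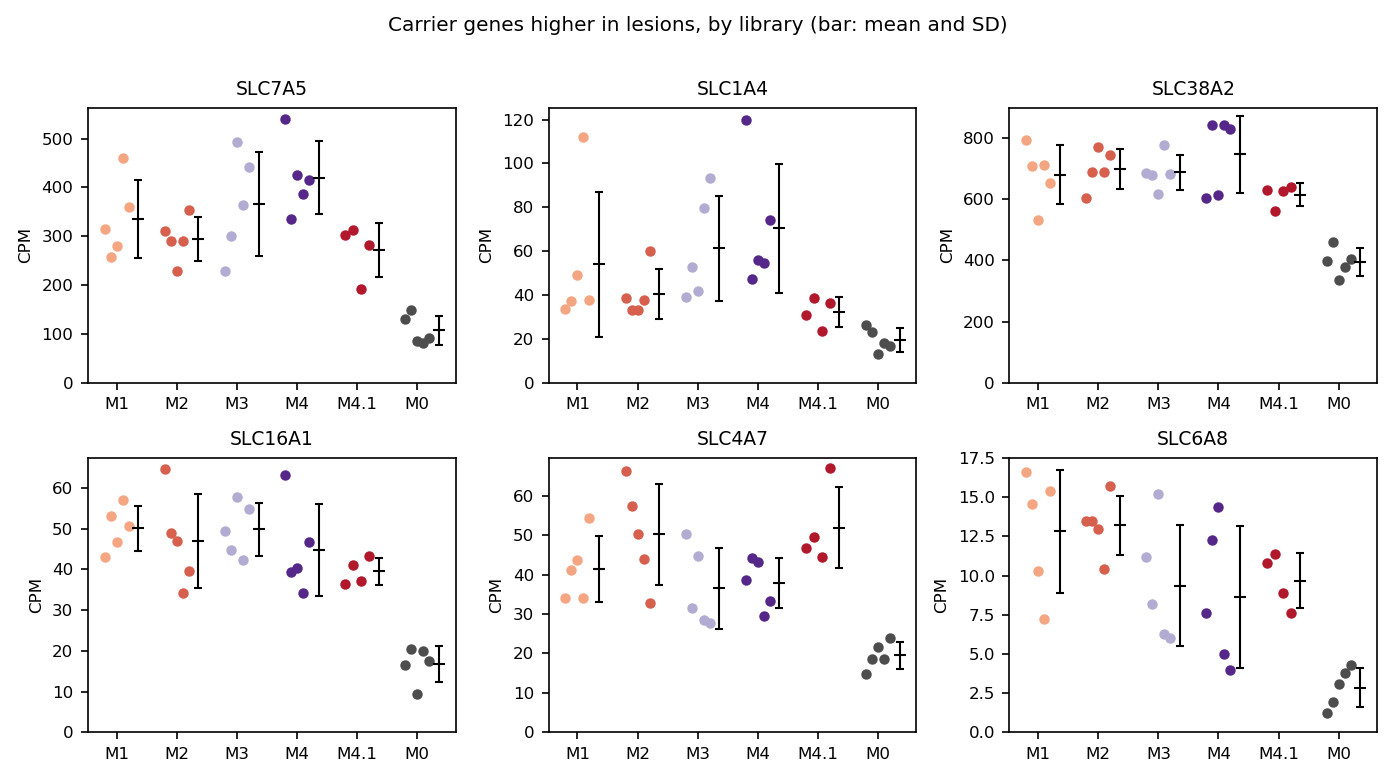
CPM per library (points) and group mean with SD (bars) for 6 members that were higher in lesions, with the stages to the left and M0 at the right of each panel. For SLC7A5, SLC38A2, SLC16A1 and SLC4A7 every lesion library is above every M0 library, while 1 lesion library each of SLC1A4 and SLC6A8 is not.

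SLC15A1 (ENSBTAG00000004440), the proton-driven carrier of di- and tripeptides best known from the small intestine, was lower in every lesion library. It was at 5.90, 5.35, 3.08, 10.1 and 3.19 CPM in M1, 3.29, 20.6, 15.2, 1.27 and 18.1 in M2, and 7.13, 18.3, 3.62, 26.5 and 19.8 in M3. In M4 it was at 15.6, 2.70, 15.4, 14.5 and 37.3 CPM and in M4.1 at 2.86, 11.4, 7.28 and 1.48, against 64.7, 76.5, 70.6, 59.8 and 124 CPM in M0. The highest lesion library, in M4, was at 37.3 CPM, against 59.8 CPM in the lowest M0 library. Its log2 fold changes were -3.87 ± 0.64, -2.77 ± 0.59, -2.43 ± 0.58, -2.20 ± 0.57 and -3.73 ± 0.68 (edgeR adjusted p between 1.7e-05 and 0.0028). SLC7A8, the light chain of LAT2, is a relative of SLC7A5 that pairs with the same heavy chain, and it fell where SLC7A5 rose. It was at 0.241 to 3.86 CPM (median 1.69) in lesions, against 6.69, 8.58, 17.9, 12.2 and 8.41 CPM in M0, with log2 fold changes of -2.41, -2.85, -2.51, -2.79 and -1.95 (edgeR adjusted p between 1.5e-05 and 0.0015). The neutral amino acid carrier SLC6A15 was also below M0 in every lesion library, at 0 to 6.79 CPM against 7.23 to 14.2 CPM, and was called in M1, M2 and M4.1 (-3.11, -2.82 and -4.00, edgeR adjusted p = 0.0033, 0.0056 and 0.0017). Its values in M3 and M4 were -1.84 and -1.23 (adjusted p = 0.057 and 0.18). SLC6A20, a proline carrier, fell by 2.43, 2.77, 1.93 and 2.76 in M1, M2, M3 and M4.1 (edgeR adjusted p between 1.3e-04 and 0.0038). It was at -0.82 in M4 (adjusted p = 0.16), where M4 replicate 5 was above all of M0. SLC43A1, a sodium-independent neutral amino acid carrier, fell by 1.38 in M3 and 1.56 in M4 (edgeR adjusted p = 0.0044 and 0.0016). SLC36A2, a proton-coupled carrier of small amino acids, had 0 counts in the 5 M1 libraries and 109 in M0. With a floor of 3 counts over the group it was at least 26.1-fold lower in M1. Over all lesion libraries SLC36A2 was at 0 to 5.89 CPM, against 2.41 to 5.44 CPM in M0, and 1 lesion library was above all of M0. It was called lower at 2 stages, and its M4.1 call was lost without any 1 of 9 libraries (-3.56 to -2.58, edgeR adjusted p = 0.052 to 0.12).

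Genes of amino acid synthesis that are not carriers were counted for comparison, as part of a list of 43 partner symbols of which 40 rows were measured and tested. Of these 40, 16, 15, 17, 15 and 16 were higher and 8, 7, 6, 8 and 8 lower from M1 to M4.1. Of all genes 20.2% to 21.9% were higher and 18.9% to 21.1% lower. ASNS, which makes asparagine, was at 48.8 to 100 CPM in lesions against 28.9 to 60.3 CPM in M0, with log2 fold changes of 0.79, 0.59, 0.90, 1.2 and 0.60 (edgeR adjusted p between 1.9e-06 and 0.0078). PSAT1 of serine synthesis rose by 1.36, 1.17, 1.32, 1.44 and 1.13 (edgeR adjusted p between 3.7e-06 and 1.9e-04), with 57.0 to 149 CPM in lesions and 29.9 to 45.6 CPM in M0. CTH, which makes cysteine, rose by 2.34, 2.29, 2.32, 1.82 and 2.49 (edgeR adjusted p between 1.2e-06 and 4.5e-05). The RNA of ATF4, a transcription factor that regulates several of these genes, was not called at any stage, with log2 fold changes of -0.09 to 0.01. ATF4 protein and its activity were not measured, and its part in these rises was not tested. Other amino acid genes of the list went the other way. CBS was at 11.8 to 39.1 CPM (median 19.7) in lesions, against 34.7 to 43.5 CPM (median 40.7) in M0. Its M3 call was lost without M3 replicate 1, 2 or 3 (-0.71 to -0.60, edgeR adjusted p = 0.051 to 0.078). GLUD1 was at 33.4 to 59.4 CPM (median 45.5), against 51.0 to 65.4 CPM (median 61.0) in M0. It was called lower in M1, M2, M4 and M4.1, and each call was lost without any 1 of 4 to 6 libraries.

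For lactate, the carrier SLC16A1 rose at every stage and SLC16A3 did not pass the test. Of 7 tested monocarboxylate carriers 1 was higher at each stage, SLC16A1, and 3, 3, 2, 3 and 2 were lower from M1 to M4.1, with medians of -1.28 to -0.45. These lower counts are fragile: each of the last 4 was 1 without single libraries, namely M0 replicate 1 or 4 or M2 replicate 1 or 2 in M2, M0 replicate 2 or 4 or M3 replicate 1, 2 or 3 in M3, M4 replicate 5 in M4, and M0 replicate 1 or M4.1 replicate 4 in M4.1. SLC16A1 (ENSBTAG00000015107), or MCT1, was at 42.9, 53.1, 46.8, 57.1 and 50.5 CPM in M1, 64.6, 48.9, 46.9, 34.3 and 39.6 in M2, and 49.3, 44.8, 57.7, 42.4 and 54.9 in M3. It was at 63.1, 39.3, 40.4, 34.2 and 46.7 CPM in M4 and 36.5, 41.1, 37.1 and 43.3 in M4.1, against 16.6, 20.4, 9.34, 19.9 and 17.5 CPM in M0. The lowest lesion library was well above the highest M0 library, and the stages overlapped with each other. The log2 fold changes came to 1.57 ± 0.18, 1.48 ± 0.18, 1.57 ± 0.19, 1.41 ± 0.18 and 1.23 ± 0.19 (edgeR adjusted p between 1.2e-07 and 1.1e-05). SLC16A3, or MCT4, was at 0.399 to 8.66 CPM (median 2.83) in lesions, against 1.66 to 7.31 CPM (median 3.22) in M0, with log2 fold changes of 0.21, 0.47, -0.23, -0.73 and 0.64 (edgeR adjusted p = 0.76, 0.46, 0.76, 0.29 and 0.33). BSG, or basigin, the chaperone that brings both to the membrane, was at 152 to 229 CPM in lesions against 131 to 153 CPM in M0. It rose by 0.37, 0.43, 0.28, 0.47 and 0.37 (edgeR adjusted p between 9.7e-04 and 0.043). Its M3 call was lost without any 1 of 8 libraries, M0 replicate 1 and M3 replicate 1 among them (0.22 to 0.29, adjusted p = 0.052 to 0.15), and its M4.1 call without M4.1 replicate 3 or 4 (0.31 and 0.32, adjusted p = 0.055 to 0.065). EMB and NPTN, also on the partner list, went the other way. EMB was at 0 to 3.0 CPM (median 1.27) in lesions against 2.56 to 6.84 CPM (median 3.58) in M0. Its M2 call was lost without any 1 of 5 libraries (-1.43 to -1.19, edgeR adjusted p = 0.052 to 0.097). Its M3 call was lost without M0 replicate 1 (-1.49, adjusted p = 0.053). NPTN was at 68.6 to 122 CPM (median 92.4) against 112 to 132 CPM (median 121). Its M3 call was lost without M3 replicate 3 (-0.31, edgeR adjusted p = 0.055). Its M4 call was lost without any 1 of 4 libraries (-0.31 to -0.29, adjusted p = 0.066 to 0.077). LDHA, the muscle-type subunit of lactate dehydrogenase, was at 289 to 1030 CPM in lesions against 195 to 242 CPM in M0, with log2 fold changes of 1.77, 1.75, 1.22, 1 and 1.79 (edgeR adjusted p between 3.7e-07 and 5.4e-04). The lower members were SLC16A7, SLC16A11 and SLC16A14. SLC16A14 was at 0 to 4.05 CPM (median 0.894) in lesions, against 1.21 to 8.23 CPM (median 2.08) in M0. Its log2 fold changes were -2.32, -2.57, -1.17, -1.71 and -2.19 (edgeR adjusted p = 0.0068, 0.0033, 0.14, 0.039 and 0.016), with the M4 call lost without M4 replicate 2, 4 or 5 (-1.53 to -1.46, adjusted p = 0.089 to 0.1). SLC16A11 fell by 1.53 in M1, 1.86 in M3 and 1.92 in M4 (edgeR adjusted p = 0.012, 0.0047 and 0.0035). Its M2 and M4.1 calls, and all 4 calls of SLC16A7, were each lost without any 1 of 3 to 6 libraries, with log2 fold changes then of -1.43 to -0.92 and adjusted p of 0.05 to 0.12. M0 replicate 2 was among these libraries for each SLC16A7 call and M0 replicate 3 for both SLC16A11 calls.

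Of 6 tested carriers of sugars and sugar phosphates 2 were higher at each stage, SLC5A1 and SLC37A3, and 1, 2, 0, 0 and 1 were lower. The lower count was 1 in M2 without M0 replicate 1, 1 in M3 without M3 replicate 1 or 5, 1 in M4 without M4 replicate 2, 3, 4 or 5 and 2 in M4.1 without M4.1 replicate 1. SLC5A1, the sodium-driven glucose and galactose carrier known from the intestine, was at 1.60 to 30.2 CPM (median 8.29) in lesions, against 3.89, 1.14, 1.45, 1.51 and 4.12 CPM in M0. It rose by 2.43 in M3, 2.46 in M4 and 1.80 in M4.1 (edgeR adjusted p = 0.0012, 8.8e-04 and 0.016). In M1 and M2 its log2 fold changes were 1.51 and 1.5 (edgeR adjusted p = 0.035 in each). The M1 call was lost without M0 replicate 2, 3 or 4 or M1 replicate 1 or 3, and the M2 call without M0 replicate 2, 3 or 4 or M2 replicate 4 or 5 (1.1 to 1.38, adjusted p = 0.074 to 0.15). SLC37A3, a sugar phosphate carrier homologue, was at 19.6 to 42.7 CPM against 9.64 to 22.7 CPM in M0, and rose by 0.73, 0.90, 0.85, 0.72 and 0.97 (edgeR adjusted p between 0.0016 and 0.012), with the M4 call lost without M0 replicate 1 (0.55, adjusted p = 0.052). SLC37A2, which exchanges glucose-6-phosphate for phosphate, went down in M1, M2 and M4.1 by 4.32, 2.66 and 3.75 (edgeR adjusted p = 4.0e-04, 0.0083 and 0.0023), at 0 to 14.8 CPM in lesions and 11 to 19.9 CPM in M0. M3 and M4 gave -1.60 and -1.67 (adjusted p = 0.094 and 0.075). SLC2A3, a facilitative glucose carrier of nerve and white blood cells, was at 6.57 to 98.9 CPM in lesions and 15.3 to 28 CPM in M0 and was not called at any stage (log2 fold changes -0.37 to 1.31, edgeR adjusted p between 0.055 and 0.64). HK2, the hexokinase that phosphorylates glucose after uptake, was at 4.1 to 40.7 CPM in lesions and 0.754 to 1.25 CPM in M0, with log2 fold changes of 3.67 to 4.41 (edgeR adjusted p between 2.9e-07 and 6.7e-06).

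SLC27A4, SLC22A5 and SLC25A20, which serve the uptake of fatty acids and their oxidation, were lower in every lesion library. Of the 3 tested SLC27 members only SLC27A4 was called, and SLC27A1 and SLC27A3 were called at no stage. SLC27A4 (ENSBTAG00000015436), or FATP4, takes up and activates fatty acids, and its loss in humans causes ichthyosis prematurity syndrome, a disorder of the skin barrier. Its level was 1.61, 1.44, 1.28, 1.26 and 0.598 CPM in M1, 0.193, 2.84, 0, 0.635 and 1.51 in M2, 0.432, 1.09, 1.45, 3.68 and 0.461 in M3, 3.19, 0.3, 1.64, 2.04 and 3.11 in M4 and 0.952, 0.773, 1.07 and 1.06 in M4.1, against 7.31, 9.92, 5.19, 7.08 and 11.5 CPM in M0. Lesion and M0 libraries did not overlap. Against M0 it gave log2 fold changes of -2.71, -2.92, -2.55, -1.99 and -3.05 (edgeR adjusted p between 9.5e-05 and 0.003). SLC22A5, or OCTN2, imports carnitine, and SLC25A20 passes acylcarnitine into the mitochondrion. SLC22A5 was at 0.483 to 4.41 CPM (median 2.66) in lesions, against 14.6, 15.6, 18.7, 14.9 and 11.6 CPM in M0, with log2 fold changes of -2.72, -2.32, -2.76, -2.73 and -2.24 (edgeR adjusted p between 1.9e-06 and 5.5e-05). SLC25A20 was at 4.66 to 20 CPM (median 12.3), against 35.1, 35.5, 34.0, 30.9 and 52.1 CPM in M0, with log2 fold changes of -1.46, -1.66, -1.56, -1.35 and -1.95 (edgeR adjusted p between 1.7e-06 and 5.2e-05). Both were thus apart from M0 in every lesion library. Partner genes of fatty acid handling went both ways. ACSL1, which activates fatty acids, was at 0.483 to 7.37 CPM against 16.1 to 22.7 CPM in M0 (log2 fold changes -3.43 to -2.54, edgeR adjusted p between 6.6e-07 and 2.7e-05). The fatty acid receptor CD36 fell by 2, 3.22, 4.01, 5.23 and 2.23 (edgeR adjusted p between 1.3e-05 and 0.0077). FABP4, a fatty acid binding protein of fat cells and macrophages, was at 2150 to 12600 CPM in lesions and 38.7 to 482 CPM in M0, with log2 fold changes of 4.66 to 5.53 (edgeR adjusted p between 2.4e-08 and 2.5e-07). Of the sebaceous gland markers 3 of the 4 measured, and the fat cell marker CIDEA, were lower in the same libraries, SCD was higher, and their part in these falls was not tested.

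In the whole class of carriers of fatty acids, choline and bile acids, 0, 0, 1, 1 and 0 of 8 tested members were higher from M1 to M4.1 and 2 were lower at each stage. The higher count in M3 was 2 without M3 replicate 3. The lower members were SLC27A4 and SLC10A5, a relative of the bile acid carriers, which was at 0 to 7.37 CPM in lesions against 5.73 to 10.4 CPM in M0. SLC10A5 fell by 2.11, 2.68, 1.95 and 2.93 in M1, M2, M4 and M4.1 (edgeR adjusted p between 4.6e-04 and 0.006) and by 1.5 in M3, where the call was lost without M0 replicate 3 or 5 or M3 replicate 1, 2 or 5 (-1.43 to -1.31, adjusted p = 0.052 to 0.075). The higher member was SLC44A3, of the choline carrier subfamily. It was at 2.16, 7.37, 0.483, 8.84 and 23.5 CPM in M3 and 29.2, 6.01, 8.54, 12.7 and 19.2 CPM in M4, against 0.311, 1.34, 0.623, 3.32 and 0.358 CPM in M0. Every M4 library was above every M0 library, and the M4 log2 fold change was 3.59 ± 0.84 (edgeR adjusted p = 0.001). The M3 value of 2.67 (adjusted p = 0.014) was 1.86 without M3 replicate 5 (adjusted p = 0.089). M4 against M2 (2.24 ± 0.78, adjusted p = 0.089) and M4.1 against M4 (-2.18 ± 0.84, adjusted p = 0.11) did not pass.

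**Figure D4:**
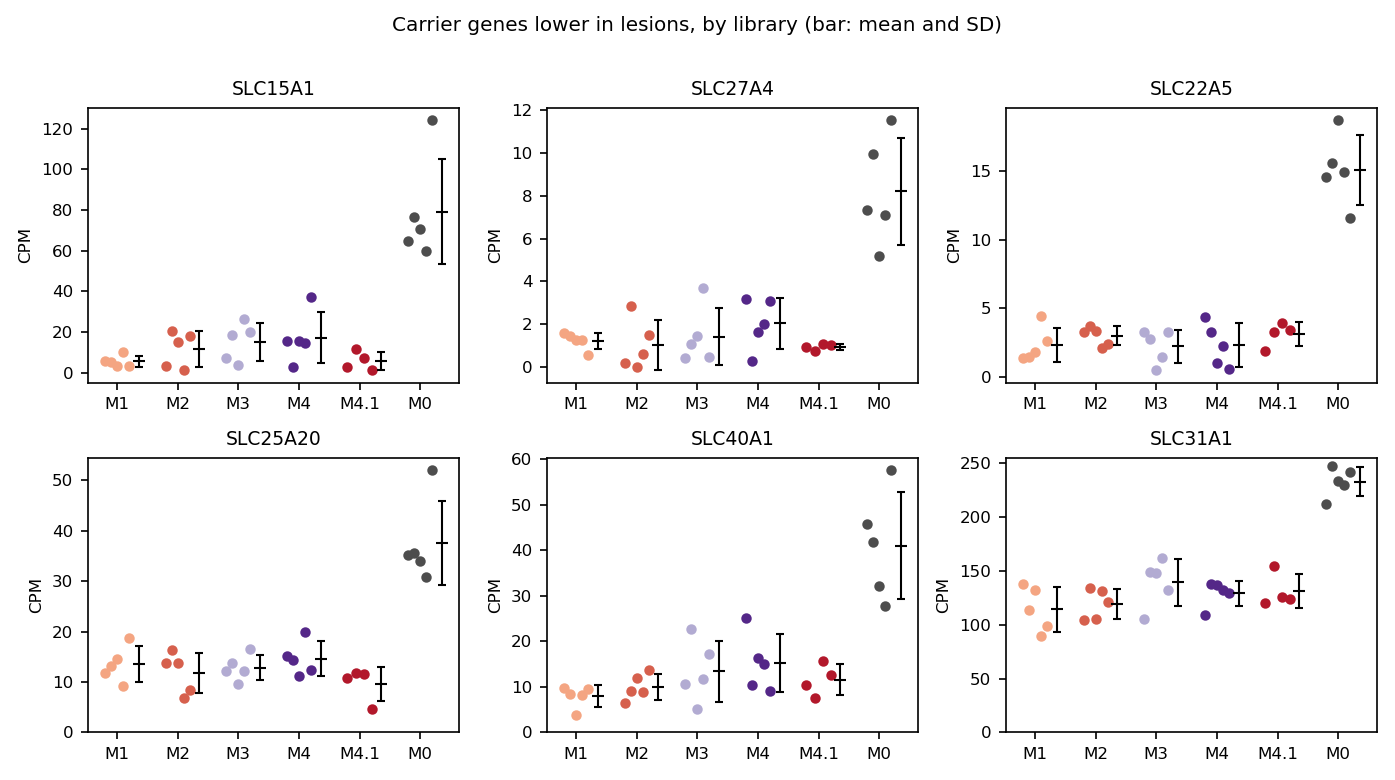
CPM per library (points) and group mean with SD (bars) for 6 members that were lower in lesions, with the stages to the left and M0 at the right of each panel. In all 6 panels the highest lesion library is below the lowest M0 library.

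Mitochondrial carriers moved in both directions. Of 29 tested SLC25 members 8, 6, 6, 7 and 6 were higher and 9, 10, 5, 10 and 7 lower from M1 to M4.1, with medians of -0.24 to -0.12. The higher count in M1 was 5 without M0 replicate 1 or 2. Their summed level was 2450 ± 333, 2370 ± 176, 2790 ± 183, 2830 ± 166 and 2290 ± 183 CPM from M1 to M4.1, against 2890 ± 117 CPM in M0 (SD, n = 4 for M4.1 and n = 5 for the others). Much of this sum is 1 gene, SLC25A6. It was at 1070 to 1990 CPM (median 1470) in lesions and 1780 to 2140 CPM (median 2060) in M0. The sum therefore follows SLC25A6 more than the class. Among the carriers of phosphate and adenine nucleotides, SLC25A3, which brings phosphate to ATP synthase, was at 386 to 547 CPM (median 425) in lesions, against 254 to 310 CPM (median 277) in M0. It rose by 0.54, 0.58, 0.72, 0.65 and 0.62 with SE of 0.10 (edgeR adjusted p between 1.5e-06 and 5.3e-05). SLC25A24, a calcium-regulated exchanger of ATP-magnesium for phosphate, was at 46.7 to 70.4 CPM (median 60.7), against 29.2 to 36.1 CPM (median 30.7) in M0, and rose by 0.92, 0.94, 0.85, 0.81 and 0.90 (edgeR adjusted p between 7.4e-07 and 6.9e-06). Its relative SLC25A25 rose by 1.14, 0.93, 1.3, 1.3 and 0.94 (edgeR adjusted p between 7.3e-05 and 0.0037), with 23 of 24 lesion libraries above all of M0. SLC25A4, SLC25A5 and SLC25A6 are the ADP/ATP carriers, closely related genes between which reads may have been split by the authors' counting. This was not checked, and their values are uncertain to that extent. SLC25A6 fell by 0.52, 0.58 and 0.70 in M1, M2 and M4.1 (edgeR adjusted p = 0.0029, 0.0011 and 3.8e-04), SLC25A4 by 0.52 in M2 (adjusted p = 0.0018), and SLC25A5 was higher in M1 and M3 (0.47 and 0.45, adjusted p = 0.019 and 0.025). The SLC25A5 calls were lost without M0 replicate 1 or 5, without M1 replicate 1 for M1, and without M0 replicate 4 or M3 replicate 3 or 4 for M3 (0.33 to 0.43, adjusted p = 0.051 to 0.11).

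Besides SLC25A20, 3 mitochondrial carriers lay below M0 in every lesion library. SLC25A34, of which no substrate is given here, was at 0 to 3 CPM (median 0.605) in lesions, against 9.33, 9.16, 7.89, 6.63 and 9.66 CPM in M0. Its log2 fold changes were -4.73, -3.81, -2.50, -3.32 and -3.83 (edgeR adjusted p between 2.3e-08 and 2.2e-05), the lowest p of the members in M1. SLC25A33, a carrier of pyrimidine nucleotides, was at 3.09 to 8.71 CPM against 9.80 to 15.4 CPM and fell by 1.23, 1.06, 1.18, 1.07 and 1.07 (edgeR adjusted p between 9.0e-05 and 8.8e-04). SLC25A22, a glutamate carrier, was at 1.98 to 6.74 CPM against 7.89 to 11.1 CPM and fell by 1.08, 1.05, 1.44, 1.22 and 0.71 (edgeR adjusted p between 4.7e-05 and 0.026), with the M4.1 call lost without M4.1 replicate 1 (-0.63, adjusted p = 0.074). SLC25A12, an exchanger of aspartate for glutamate, went the other way, with log2 fold changes of 0.57, 0.63, 0.62, 0.46 and 0.53 (edgeR adjusted p between 0.0051 and 0.04). Its M4 and M4.1 calls were lost without any 1 of 6 and any 1 of 4 libraries, M0 replicates 3 and 5 among them (0.34 to 0.49, adjusted p = 0.055 to 0.14).

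Among carriers of inorganic ions, a bicarbonate carrier and a magnesium carrier were higher at every stage, and an anion exchanger at 4 stages. Of 20 tested members of the class 5, 5, 6, 3 and 6 were higher and 6, 5, 3, 4 and 4 lower from M1 to M4.1, and the lower counts in the last 4 were 2, 1, 2 and 2 without M0 replicate 1, 3 or 4. Over the stages 20.2% to 21.9% of all genes were higher and 18.9% to 21.1% lower. SLC4A7, a sodium-bicarbonate carrier that raises the pH of the cell, was at 34.1, 41.2, 43.7, 34.1 and 54.3 CPM in M1, 66.3, 57.4, 50.3, 44.0 and 32.9 in M2, 50.3, 31.4, 44.7, 28.4 and 27.7 in M3, 38.7, 44.2, 43.3, 29.5 and 33.4 in M4 and 46.7, 49.5, 44.4 and 67.0 in M4.1. In M0 it was at 14.9, 18.7, 21.6, 18.5 and 24 CPM, below every lesion library. The log2 fold changes by stage were 1.09, 1.36, 0.91, 0.95 and 1.41 with SE of 0.20 (edgeR adjusted p between 2.8e-06 and 5.4e-04). The anion exchanger SLC26A6 rose by 1.22, 1.16 and 1.1 in M1, M2 and M4.1 (edgeR adjusted p = 0.0013, 0.0023 and 0.0056). Its M3 call (0.77, adjusted p = 0.043) was lost without any 1 of 7 libraries, M0 replicates 1 to 4 and M3 replicates 1 to 3 (0.61 to 0.78, adjusted p = 0.065 to 0.14). SLC26A6 was not called in M4. CA2, a carbonic anhydrase that supplies bicarbonate and protons, was at 165 to 1190 CPM against 145 to 429 CPM in M0 and rose by 1.54, 1.62, 1.3, 1.21 and 1.59 (edgeR adjusted p between 0.0017 and 0.015). CA13, another carbonic anhydrase, was at 10.8 to 75.6 CPM (median 24.8) in lesions, against 37.8 to 62.9 CPM (median 43.7) in M0. Its call as lower in M4.1 was lost without any 1 of 5 libraries (-1.32 to -1.12, edgeR adjusted p = 0.057 to 0.098). SLC9A3R1 (NHERF1), the scaffold of sodium-proton exchanger 3 and other membrane proteins, was at 40.1 to 170 CPM (median 79.9) in lesions, against 28, 23.7, 26.2, 23.4 and 37.0 CPM in M0, without overlap. Its log2 fold changes were 1.4, 1.22, 1.70, 2.09 and 1.49 (edgeR adjusted p between 1.2e-07 and 1.8e-04).

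SLC41A1, a magnesium carrier, rose by 1.04, 1.02, 0.80, 1.02 and 1.39 (edgeR adjusted p between 6.8e-05 and 0.01), with 21 of 24 lesion libraries above all of M0. Its M3 call was lost in a fit of the M3 and M0 libraries alone (0.79, edgeR adjusted p = 0.058). SLC20A1, a sodium-driven phosphate carrier, rose by 1.01, 0.89 and 1.29 in M1, M2 and M4.1 (edgeR adjusted p = 0.0028, 0.0076 and 5.0e-04). Its M3 call (0.78, adjusted p = 0.021) was lost without M0 replicate 3 or M3 replicate 1 (0.59 to 0.70, adjusted p = 0.054 to 0.089), and M4 gave 0.43 (adjusted p = 0.20). Lower members were the potassium-chloride carrier SLC12A7, with 2.72 to 11.8 CPM against 11.3 to 13 CPM in M0 and log2 fold changes of -1.05, -1.22, -0.90, -1.61 and -1.25 (edgeR adjusted p between 4.6e-05 and 0.01), and the endosomal sodium-proton exchanger SLC9A9, which fell by 1.28, 1.70 and 1.58 in M1, M2 and M4.1 (edgeR adjusted p = 0.0075, 7.9e-04 and 0.0032). SLC12A2, the sodium-potassium-chloride carrier of secretory glands, was not called at any stage (log2 fold changes -0.39 to 0.01, edgeR adjusted p between 0.27 and 0.98). The anion exchanger SLC26A7, the sodium-proton exchanger SLC9A2 and the phosphate carrier SLC34A2 were nearly silent in lesions. SLC26A7 had 3, 2 and 2 counts in M1, M2 and M4 against 100 in M0, which puts M0 at 24 (95% counting interval 7.97 to 118), 40.0 (10.8 to 335) and 29.3 (7.90 to 245) times the stage. SLC9A2 had 0 counts in M1 against 84 in M0, at least 20.1-fold lower with a floor of 3 counts over the group. SLC34A2 had 50 counts in M0 and was at least 12-, 10-, 9.77- and 10.8-fold lower in M1, M3, M4 and M4.1, where it had 0 counts. Intervals and floors cover counting error only, and the listing rule could keep such genes through their counts in M0. The sweat and apocrine gland markers were lower in the same libraries, and their part in these falls was not tested.

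For metals, the exporter of iron and the importer of copper were lower in every lesion library. Of 21 tested carriers of zinc, iron and other metals 3, 3, 1, 1 and 4 were higher and 5, 5, 5, 7 and 5 lower from M1 to M4.1. The higher count was 1 in M1 without M0 replicate 3 or 4 or M1 replicate 1 or 3 and 2 in M4.1 without M4.1 replicate 3, and the lower count in M3 was 3 without M3 replicate 4. The higher count was 2 in M3 without M3 replicate 4 or 5 and 2 in M4 without M4 replicate 5. SLC40A1 (ENSBTAG00000010498), or ferroportin, the iron exporter of macrophages and of the gut, was at 9.66, 8.44, 3.85, 8.20 and 9.58 CPM in M1, 6.38, 9.06, 12, 8.89 and 13.6 in M2, 10.6, 22.7, 5.07, 11.8 and 17.1 in M3, 25.2, 10.5, 16.4, 15 and 9.05 in M4 and 10.5, 7.53, 15.6 and 12.5 in M4.1. The M0 libraries held 45.7, 41.8, 32.2, 27.7 and 57.6 CPM, all above the lesions. Fold changes on the log2 scale were -2.36 ± 0.32, -2.05 ± 0.32, -1.62 ± 0.31, -1.44 ± 0.31 and -1.82 ± 0.34 (edgeR adjusted p between 1.4e-06 and 4.6e-04). TFRC, the transferrin receptor that imports iron, went up by 3.22, 2.74, 2.03, 3.01 and 3.03 (edgeR adjusted p between 3.0e-05 and 0.0085), at 0.635 to 7.58 CPM in lesions and 0 to 0.933 CPM in M0. SLC31A1, or CTR1, imports copper and was at 89.2 to 162 CPM (median 130) in lesions, against 212, 247, 233, 230 and 242 CPM in M0. The spread within groups was small, and it fell by 1.02, 0.97, 0.74, 0.85 and 0.83 with SE of 0.13 to 0.14 (edgeR adjusted p between 3.1e-07 and 3.4e-05).

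Zinc importers of the SLC39 subfamily moved in both directions. Of 11 tested SLC39 members 2, 1, 0, 0 and 3 were higher and 2, 3, 3, 5 and 3 lower from M1 to M4.1. Of 5 tested members of SLC30, the zinc exporters, 1, 2, 1, 1 and 1 were higher and 0 lower, and 1 of 5 is near the share of all genes that were higher. SLC39A2, expressed in epidermal cells, was at 0.598 to 8.70 CPM (median 3.58) in lesions, against 5.6, 20.4, 8.93, 15.8 and 22.0 CPM in M0, where replicate 1 overlapped with the lesions. It fell by 2.94, 1.88, 2.04, 1.64 and 1.58 (edgeR adjusted p between 9.1e-06 and 0.0056). SLC30A1, the zinc exporter of the plasma membrane, rose by 1.5 in M3 and 1.26 in M4 (edgeR adjusted p = 0.0013 and 0.0053). It was called too in M1 (0.95, adjusted p = 0.03) and M2 (0.87, adjusted p = 0.05), where each call was lost without any 1 of 6 or 7 libraries, M0 replicates 1, 2 and 4 among them (0.55 to 0.95, adjusted p = 0.052 to 0.21). The macrophage and neutrophil divalent metal carrier SLC11A1 was not called, with log2 fold changes of -0.78 to 0.89 (edgeR adjusted p between 0.24 and 0.90). SLC30A3, which was too low to be tested, had 0 counts in M4 against 110 in M0, at least 21.5-fold lower.

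Of the carriers of vitamins and nucleosides, SLC46A1, SLC19A3 and SLC29A1 were lower at every stage, whereas SLC43A3 and, in M3 and M4, SLC52A3 and SLC28A3 were higher. Of 14 tested carriers of vitamins, haem and nucleosides 2, 2, 4, 5 and 2 were higher and 6, 4, 5, 3 and 6 lower from M1 to M4.1, and the counts of 2 in M1, M2 and M4.1 were 4 without M0 replicate 5 and, for M1, 1 without M1 replicate 5. SLC46A1, the proton-coupled folate carrier, was at 0.399 to 8.49 CPM (median 2.07) in lesions, against 19, 14.9, 13.1, 18.8 and 19.1 CPM in M0. Its log2 fold changes were -3.99, -3.37, -2.31, -1.77 and -2.38 (edgeR adjusted p between 1.5e-06 and 0.003). SLC19A1, the reduced folate carrier, went the other way, by 1.57 in M2 and 1.83 in M4.1 (edgeR adjusted p = 0.016 and 0.0078). Its M1 call (1.73, adjusted p = 0.008) was lost without M1 replicate 5 (1.22, adjusted p = 0.067) and its M4 call (1.36, adjusted p = 0.042) without M0 replicate 2, 3 or 5 or M4 replicate 3, 4 or 5 (1.13 to 1.38, adjusted p = 0.062 to 0.11). SLC19A3, a thiamine carrier of the same subfamily, was at 0.399 to 3.60 CPM against 5.91 to 8.23 CPM in M0 and fell by 1.62, 2.6, 2.04, 2.42 and 2.07 (edgeR adjusted p between 2.2e-05 and 0.0019). The other tested thiamine carrier, SLC19A2, was called at no stage (log2 fold changes -0.92 to -0.05).

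SLC29A1, or ENT1, lets nucleosides such as adenosine cross the membrane down their gradient. It was at 21.7, 14.4, 7.71, 20.2 and 30.3 CPM in M1, 9.86, 14.6, 20.2, 15.2 and 17.8 in M2, 19.9, 12, 14.7, 15.5 and 9.69 in M3, 11.6, 6.91, 12.5, 7.25 and 11.9 in M4 and 20.6, 16.4, 28.6 and 24.6 in M4.1, against 49.3, 58.0, 36.5, 62.4 and 33.6 CPM in M0. Every lesion library was below every M0 library, and no M4 library reached the lowest of M4.1. The stages gave log2 fold changes of -1.34, -1.63, -1.72, -2.27 and -1.09 (edgeR adjusted p between 3.2e-07 and 0.0031). SLC43A3, a purine nucleobase carrier, was at 2.77 to 29.9 CPM (median 8.33) in lesions, against 1.56 to 2.86 CPM (median 1.79) in M0. It rose by 2.78, 2.83, 1.94 and 2.51 in M1, M2, M3 and M4.1 (edgeR adjusted p between 2.1e-05 and 0.0021) and by 1.41 in M4 (adjusted p = 0.024), where the call was lost without M0 replicate 1 or M4 replicate 2 (1.3, adjusted p = 0.054 to 0.056). SLC28A3, or CNT3, which concentrates nucleosides with sodium, was at 7.56, 25.1, 13.8, 68.9 and 68.8 CPM in M3 and 33.1, 12.3, 73.2, 16.3 and 27.2 CPM in M4, against 4.82, 5.91, 5.81, 3.32 and 4.65 CPM in M0. These M3 and M4 libraries were all above M0, with log2 fold changes of 2.88 and 2.72 (edgeR adjusted p = 0.0032 and 0.0044), and M1, M2 and M4.1 gave 1.49, 1.62 and 1.14 (adjusted p = 0.11, 0.084 and 0.26). M4 against M2 was 1.1 (adjusted p = 0.34). SLC29A2, a relative of SLC29A1, went up by 1.69 in M4 (edgeR adjusted p = 0.0066) and by 1.3 in M3 (adjusted p = 0.039), where the call was lost without M0 replicate 1, 2 or 4 or M3 replicate 2 (0.86 to 1.24, adjusted p = 0.075 to 0.2). SLC52A3, a riboflavin carrier, rose by 1.92 in M3 and 1.85 in M4 (edgeR adjusted p = 9.3e-04 and 0.0011), but M4 against M2 gave 1.19 (adjusted p = 0.095). The haem carrier SLC48A1 fell by 0.62, 0.52 and 0.72 in M1, M2 and M4.1 (edgeR adjusted p = 0.0035, 0.012 and 0.0021).

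The carriers of organic ions, neurotransmitters and urea had the lowest class medians together with monocarboxylate carriers, at -1.2, -1.08, -0.51, -0.76 and -1.14 over 10 tested members. Of these 3, 3, 2, 2 and 3 were higher and 5, 5, 4, 4 and 5 lower from M1 to M4.1, and the lower count was 3 without M0 replicate 3 or 4 in M1 and without M0 replicate 4 in M4.1. Their summed level was 39.0 ± 1.96, 40.7 ± 5.94, 40.7 ± 4.21, 37.0 ± 6.91 and 39.5 ± 1.96 CPM from M1 to M4.1, against 66.7 ± 11.4 CPM in M0 (SD, n = 4 for M4.1 and n = 5 for the others). In the SLC22 subfamily of organic ion carriers 3 of 4 tested members were lower and 0 higher at each stage. Besides SLC22A5 these were SLC22A17, known from mouse as a receptor for lipocalin 2, at 1.61 to 6.94 CPM against 9.19 to 17.5 CPM in M0 (log2 fold changes -1.82, -1.73, -1.71, -1.58 and -1.62, edgeR adjusted p between 7.2e-05 and 5.8e-04), and SLC22A31, at 0 to 1.24 CPM against 8.24 to 13.3 CPM in M0. SLC22A31 had log2 fold changes of -4.84, -5.24, -5.35 and -4.07 in M1, M2, M4 and M4.1 (edgeR adjusted p between 1.5e-07 and 5.8e-06). With 3 counts in M3 against 309 in M0, its M0 level was 62.1 times that of M3 (95% counting interval 21.1 to 303). SLC6A4, the serotonin carrier, had 0 counts in the 5 M1 libraries against 99 in M0, at least 23.7-fold lower, and in M0 it was at 3.11, 4.39, 5.19, 3.32 and 1.61 CPM. It fell by 3.61 in M2 and 3.74 in M4 (edgeR adjusted p = 1.1e-04 and 1.8e-04).

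The creatine carrier SLC6A8 was higher at every stage. It was at 16.6, 14.6, 10.3, 7.25 and 15.4 CPM in M1, 13.5, 13.5, 13, 10.4 and 15.7 in M2, 11.2, 8.19, 15.2, 6.26 and 6.00 in M3, 7.59, 12.3, 14.4, 4.99 and 3.96 in M4 and 10.8, 11.4, 8.88 and 7.63 in M4.1, against 1.24, 1.91, 3.11, 3.77 and 4.29 CPM in M0. Of the lesion libraries only M4 replicate 5 was inside the M0 range. The log2 changes against M0 were 2.16, 2.19, 1.73, 1.57 and 1.74 with SE of 0.34 to 0.36 (edgeR adjusted p between 8.2e-06 and 6.3e-04). SLC17A7, a vesicular glutamate carrier of neurons, rose by 2.21, 2.6, 2.36, 2.58 and 2.77 (edgeR adjusted p between 3.9e-04 and 0.0025), from counts that were low in every group, at 0.315 to 7.21 CPM in lesions and 0.179 to 1.71 CPM in M0. Of the 6 carriers of nucleotide sugars and acetyl-CoA 0, 1, 1, 1 and 0 were higher and 1, 1, 2, 2 and 0 lower. The higher count was 0 in M2 without M0 replicate 1 or 2 or M2 replicate 1, 2 or 4 and 1 in M1 without M1 replicate 2 or 4, and the lower count was 2 in M2 without M2 replicate 1 and 1 in M4.1 without M4.1 replicate 3. SLC35A1, which brings CMP-sialic acid to the Golgi apparatus, fell by 0.85 in M3 and 1.1 in M4 (edgeR adjusted p = 0.0034 and 3.0e-04).

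Between stages few solute carriers differed. No member was called by edgeR in M2 against M1, M3 against M2 or M4 against M3, where the background was 0% of all genes, and limma-voom and DESeq2 called 0 members in each as well. At an unadjusted p under 0.05 there were 11, 16 and 12 of 153 members in these comparisons, or 7.19%, 10.5% and 7.84%, beside 4.02%, 8.90% and 6.89% of all genes. M4 against M2 had 2 members higher and 2 lower, or 2.61%, beside 3.11% of all genes (1.79% higher and 1.32% lower). M4.1 against M4 had 5 higher and 1 lower, or 3.92%, beside 4.3% (2.25% higher and 2.05% lower). The share called was not above the background in either comparison. Both sets rest on single libraries: without any 1 of M2 replicates 3 and 4 or M4 replicates 1, 3 and 5 there were 0 higher in M4 against M2, and without M2 replicate 5 there were 7. Without M4 replicate 1 or 5 or M4.1 replicate 3 or 4 there were 0 higher in M4.1 against M4, and without M4 replicate 2 there were 8.

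SLC17A9, which loads ATP and other nucleotides into vesicles, was called in both. It was at 4.44, 2.90, 7.46 and 10.2 CPM in M4.1, at 0, 1.5, 0.328, 2.04 and 0.849 CPM in M4 and at 3.48, 2.84, 4.09, 5.08 and 3.93 CPM in M2. The M4 libraries did not overlap with either group. M4 against M2 gave -1.89 ± 0.53 (edgeR adjusted p = 0.047), lost without any 1 of M2 replicates 1 to 4 or M4 replicates 1, 3 and 5 (-1.99 to -1.64, adjusted p = 0.071 to 0.11). M4.1 against M4 gave 2.58 ± 0.54 (adjusted p = 0.025), lost without M4 replicate 1 or 5 or M4.1 replicate 3 or 4 (2.25 to 2.52, adjusted p = 0.054 to 0.074). Against M0, at 1.09, 0.572, 0.415, 2.26 and 1.61 CPM, it rose by 1.88, 1.64 and 2.34 in M1, M2 and M4.1 (edgeR adjusted p = 0.0024, 0.0074 and 4.3e-04) and was at 0.79 and -0.25 in M3 and M4 (adjusted p = 0.24 and 0.76). The taurine carrier SLC6A6, whose levels are given above, was also called in both, with -1.39 ± 0.36 in M4 against M2 (adjusted p = 0.04) and 1.63 ± 0.38 in M4.1 against M4 (adjusted p = 0.026). The first was lost without any 1 of M2 replicates 1 to 4 or M4 replicates 1, 3, 4 and 5 (-1.62 to -1.21, adjusted p = 0.06 to 0.11), the second without M4 replicate 1 or 5 or M4.1 replicate 3 or 4 (1.45 to 1.61, adjusted p = 0.059 to 0.091).

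The other 2 members called in M4 against M2 were higher in M4. The scaffold SLC9A3R1 was at 170, 88.3, 119, 113 and 101 CPM in M4 and 56.3, 57.7, 64.3, 48.7 and 95.5 CPM in M2, with overlap, and gave 0.87 ± 0.24 (edgeR adjusted p = 0.041), lost without any 1 of M2 replicates 1 to 4 or M4 replicates 1, 3, 4 and 5 (0.71 to 0.93, adjusted p = 0.052 to 0.13). SLC25A28, or mitoferrin 2, which brings iron into mitochondria, was at 32.3, 28.5, 30.9, 33.6 and 31.7 CPM in M4 and 25.5, 20.8, 16.4, 19.7 and 22.7 CPM in M2, without overlap. Its difference was 0.58 ± 0.14 (edgeR adjusted p = 0.034), lost without any 1 of M2 replicates 2 to 4 or M4 replicates 1, 3 and 5 (0.50 to 0.58, adjusted p = 0.065 to 0.10).

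In M4.1 against M4 the zinc importers SLC39A14 and SLC39A13 and the nucleoside carrier SLC29A1 were higher and the ADP/ATP carrier SLC25A6 lower. SLC39A14, which cells raise in inflammation and which also carries iron and manganese, was at 11.1, 10.4, 17.9 and 15.7 CPM in M4.1 and 3.59, 9.91, 2.3, 3.85 and 2.83 CPM in M4, without overlap. It gave 1.61 ± 0.40 (edgeR adjusted p = 0.033), lost without M4 replicate 1, 3 or 5 or M4.1 replicate 3 or 4 (1.45 to 1.55, adjusted p = 0.072 to 0.11). Against M0, at 5.29, 7.82, 3.94, 5.43 and 6.44 CPM, it rose by 1.26 in M4.1 (edgeR adjusted p = 0.0097), while M1, M2, M3 and M4 gave 0.62, 0.87, 0.54 and -0.36 (adjusted p = 0.17, 0.055, 0.26 and 0.50). SLC29A1 differed by 1.18 ± 0.30 (adjusted p = 0.033), lost without M4 replicate 1, 3, 4 or 5 or M4.1 replicate 3 or 4 (1.04 to 1.28, adjusted p = 0.052 to 0.12). SLC39A13 was at 23.2, 10.6, 24.7 and 14.4 CPM in M4.1 and 9.19, 10.2, 10.2, 8.16 and 11.6 CPM in M4, with overlap. Its difference of 0.88 ± 0.23 (edgeR adjusted p = 0.035) was lost without M4 replicate 1, 3, 4 or 5 or M4.1 replicate 1, 3 or 4 (0.68 to 0.97, adjusted p = 0.057 to 0.15). SLC25A6 was at 1200, 1400, 1090 and 1200 CPM in M4.1 and 1830, 1600, 1600, 1960 and 1710 CPM in M4, and its -0.51 ± 0.15 (edgeR adjusted p = 0.045) was lost without the same 7 libraries, each left out alone (-0.54 to -0.46, adjusted p = 0.07 to 0.15). The limit given above for reads of the ADP/ATP carriers holds here too. The keratinocyte markers summed to 30200 to 64800 CPM in M4.1 and 78600 to 269000 CPM in M4, and the neutrophil markers to 9490 to 13700 CPM in M4.1 and 16700 to 35300 CPM in M4. The macrophage markers summed to 73.0 to 147 CPM in M4.1 and 28.4 to 95.9 CPM in M4, the endothelial markers to 63.4 to 107 CPM in M4.1 and 43.1 to 54.5 CPM in M4, and the smooth muscle markers to 321 to 739 CPM in M4.1 and 95.1 to 287 CPM in M4. The 6 hair follicle markers summed to 0.848 to 506 CPM (median 152) in M4.1 and 0.601 to 9.52 CPM (median 2.95) in M4. Of these 5 were called higher in M4.1, as was 1 of the 4 sebaceous gland markers. Of the 6 keratinocyte markers 2 were called lower in M4.1, and of the 3 endothelial markers 1 was called higher. None of the measured neutrophil, macrophage or smooth muscle markers was called in M4.1 against M4. JCHAIN, the 1 marker of B and plasma cells measured, was at 24.5 to 455 CPM in M4.1 and 7.22 to 45.6 CPM in M4, and was called higher. The part of all these markers in the differences between M4.1 and M4 was not tested.

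**Figure D5:**
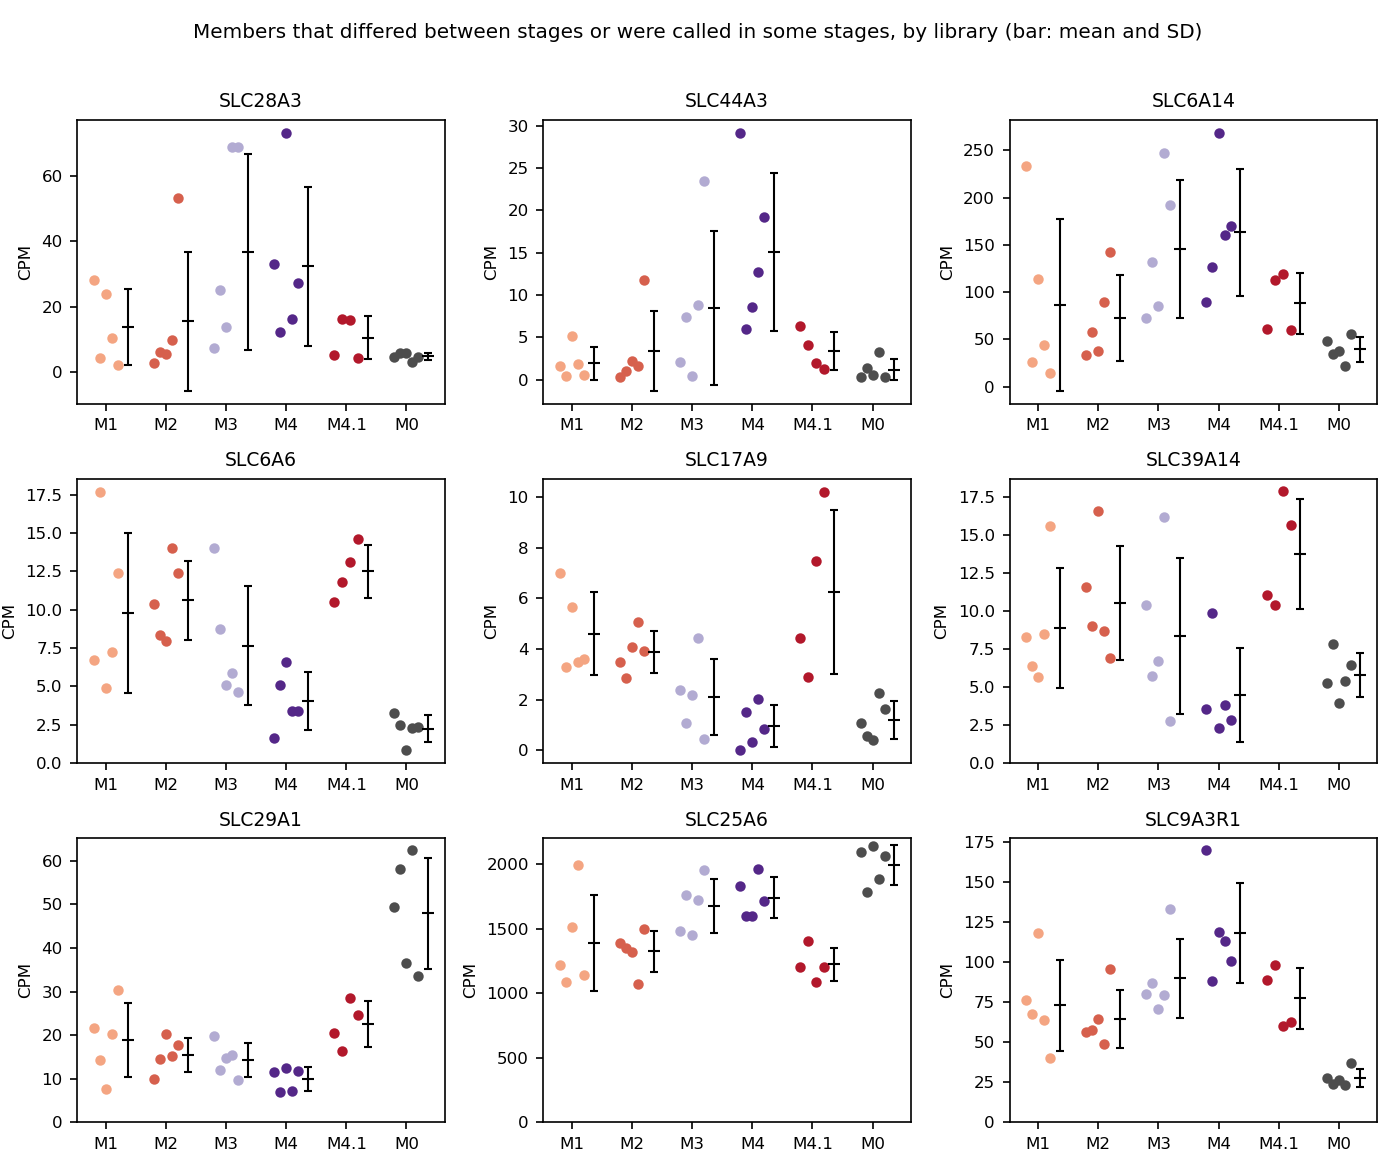
CPM per library (points) and group mean with SD (bars) for 9 members named in the comparisons between stages, with the stages in order and M0 at the right of each panel. M4 is the lowest lesion group for SLC17A9, SLC6A6, SLC39A14 and SLC29A1 and among the highest for SLC28A3, SLC44A3 and SLC9A3R1.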

How the data were processed

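The authors deposited 5 tables, 1 for each lesion stage with M0, each holding whole-number counts per gene and library for the genes it listed. Per the submitters' processing notes, the tools were STAR, RSEM 1.3.1, edgeR, cutadapt 2.8 and FastQC 0.11.7, and the build was ARS-UCD1.2. Whether RSEM estimates were rounded to give the counts is not stated, and neither is the use of strand. Per the file headers, the tables also hold a normalized signal per library and the authors' p-value for each gene. The deposited signal, which is scaled within each table, was used only for the genes listed in some tables, and the deposited p-values were not used.

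Counts were joined over the 10629 genes listed in all 5 tables, and 29 libraries entered 1 fit with 6 groups. The filter on low counts was edgeR's filterByExpr, which removed 258 genes. Tests were edgeR's quasi-likelihood F test (edgeR 4.0.16, R 4.3.3) with TMM factors and Benjamini-Hochberg adjustment over 10371 genes for 10 comparisons, called at an adjusted p under 0.05. Every adjusted p in the text comes from edgeR unless another tool is named, and ± after a log2 fold change is its standard error. The procedure was tested on simulated counts. Alternatives were RLE factors, other filters, a replicate block, fits of 2 groups, limma-voom (limma 3.58.1), DESeq2 1.42.0 and leaving out each library. No replicate pair agreed within sampling noise.

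The members, gene lists and naming rule were chosen with earlier results of these data known. The rule named, in each comparison with M0, the called members, of at least 5 CPM on average, with the 5 highest and the 5 lowest fold changes. It also named up to 3 members with the smallest p in each class, up to 4 called members with the smallest p between stages, a list of 24 carriers known in skin or inflammation of which 19 are members, and paralogs called in opposite directions. It gave 100 members. A further 7 (SLC30A1, SLC36A2, SLC38A7, SLC38A10, SLC48A1, SLC52A3 and SLC17A7) were named after their values were seen. The values of 1 member are not reported here.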

Additional observations from a re-analysis of the deposited data

Results flagged for a closer look

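In 126 groups of libraries, 6 for each of 21 members with values by library, 13 had a highest or lowest library far from its group, and chance flags about 1 in 20 groups. For SLC1A4 these were M1 replicate 4, the highest at 112 CPM, and M2 replicate 5, the highest at 60.2 CPM. M2 replicate 5 was also the highest of its group for SLC28A3 (53.2 CPM) and SLC44A3 (11.8 CPM). In M4.1, replicate 2 was the lowest for SLC38A2 (561 CPM) and the highest for SLC31A1 (154 CPM), and replicate 4 was the lowest for SLC25A20 (4.66 CPM). M0 replicate 5 was the highest of M0 for SLC15A1 (124 CPM) and SLC25A20 (52.1 CPM). SLC40A1 was lowest in M1 replicate 3 (3.85 CPM). SLC39A14 was highest in M1 replicate 5 (15.6 CPM) and in M4 replicate 2 (9.91 CPM), and SLC9A3R1 in M3 replicate 5 (133 CPM).

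Stages differed from each other by the edgeR adjusted p for 10 results. In M4 against M2 the log2 fold changes were -1.89 for SLC17A9, -1.39 for SLC6A6, 0.58 for SLC25A28 and 0.87 for SLC9A3R1. In M4.1 against M4 they were 2.58 for SLC17A9, 1.63 for SLC6A6, 1.61 for SLC39A14, 1.18 for SLC29A1, 0.88 for SLC39A13 and -0.51 for SLC25A6.

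SLC2A6, a glucose carrier of the lysosome that enters no comparison because the M4.1 table alone lists it, had a median deposited signal of 2.42 in M4.1 (2.14 to 4.47, 4 libraries) and 0.178 in M0 (0 to 0.437, 5 libraries).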

How the results depend on the processing

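Of 361 called results of the members named, 83 were lost under at least 1 alternative, 81 of them by leaving out 1 library, and 0 reversed. By setting, and overlapping with these, losses were 2 with RLE factors, 3 without a filter, 4 of 318 with at least 10 counts in 10 libraries, 16 of 343 in fits of 2 groups, 14 with limma-voom and 2 with DESeq2. With limma-voom the differences between stages of SLC17A9 (M4 against M2, -2.12, adjusted p = 0.056), SLC29A1 (1.21, 0.056) and SLC39A13 (0.79, 0.08) were lost. Leaving out 1 library at a time gave 29 to 35 members higher and 38 to 44 lower in M1 against M0, 28 to 33 and 35 to 41 in M2, 30 to 35 and 27 to 37 in M3, 30 to 35 and 34 to 43 in M4, and 26 to 33 and 32 to 37 in M4.1. It gave 0 to 7 higher and 0 to 4 lower in M4 against M2 and 0 to 8 higher and 0 to 4 lower in M4.1 against M4. Other counts that moved by over 1.5 times were those of M4 against M2 (2 higher, 2 lower), with 6 higher and 4 lower in DESeq2 and 1 lower in limma-voom and in the fit of 2 groups. In M4.1 against M4 (5 higher, 1 lower), DESeq2 gave 10 higher and 7 lower, limma-voom 3 higher and the fit of 2 groups 3 lower. The cause was not tested.

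Whether replicate numbers pair the samples is not given. In no comparison did every same-numbered pair correlate above 0.1, but 3 of 5 pairs did in M3 against M2 (highest 0.414). Pairs with different numbers were not compared, so these values cannot decide whether the samples are paired. With the replicate number as a block, 21 of the 361 results were lost, M4 against M2 had 0 higher and 0 lower, and M4.1 against M4 had 1 higher and 0 lower.

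On raw library totals the summed level of amino acid carriers was 1420 CPM in M4 and 1450 in M4.1, against 1120 in M0. For mitochondrial carriers it was 2290 in M4 and 2480 in M4.1, against 3430 in M0, for organic ions 29.6 and 43.1, against 78.6, and for metals 478 in M2, 343 in M4 and 524 in M4.1, against 704 in M0.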

Other observations

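A further 12 genes with symbols of the same form were listed in some of the tables and not in all 5, and their deposited signal is given without a test. SLC6A2, the noradrenaline carrier, was listed at 0 in the 4 M4.1 libraries, against 0.685 to 3.79 in M0. SLC38A3, a glutamine carrier, had a median of 0.111 (0 to 0.407) in M4.1, against 1.2 (0.892 to 2.13) in M0. SLC25A32, a mitochondrial folate carrier, had a median of 0.231 (0.203 to 0.712) in M4.1, against 1.19 (0.408 to 1.78) in M0. SLC45A4 had medians of 0.648 in M1, 0.216 in M2, 0.256 in M3 and 0.315 in M4.1, against medians of 2.71 to 2.91 in M0 by table, where 1 library was at 0.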
